A study of Mus musculus with 15 samples.

Results

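The genes for 8 surface molecules through which an antigen-presenting B cell stimulates or restrains T cells, here called ligand genes, were followed in murine A20 lymphoma cells: *Cd80*, *Cd86*, *Cd40*, *Icosl*, *Cd274*, *Pdcd1lg2*, *Tnfsf9* and *Cd70*. They were listed by name, and each was found once by its Ensembl identifier among the 41388 genes listed for all 15 libraries. The A20 line derives from a B-cell lymphoma of a BALB/c mouse, and all libraries were made from cultured cells under standard conditions with no further treatment. The 5 lines compared were the A20 parental line, whose genotype is given as WT, and 4 clones in which *Foxp1*, a forkhead transcription factor, was mutated with CRISPR/Cas9. Clones E6.1 and E6.2 carry mutations in exon 6 of *Foxp1* and clones E7.1 and E7.2 in exon 7. Each line was sequenced as 3 libraries from separate passages. Each clone grew from a single sorted cell, so the 3 libraries of a clone repeat 1 clone, and the parental line was an unedited culture rather than a line that had passed through Cas9 treatment and cloning.

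T cells need a second signal besides the antigen receptor, and these ligands provide or limit it. CD80 and CD86 bind both CD28, which stimulates T cells, and CTLA-4, which restrains them. ICOS ligand, encoded by *Icosl*, and the TNF family ligands 4-1BBL and CD70, encoded by *Tnfsf9* and *Cd70*, stimulate through ICOS, 4-1BB and CD27. PD-L1 and PD-L2, encoded by *Cd274* and *Pdcd1lg2*, inhibit T cells through PD-1. CD40 is a receptor on the B cell that receives CD40 ligand from helper T cells and signals through TRAF adaptors to NF-κB, which in B cells raises several of the other ligands. In B-cell lymphoma, these molecules bear on how tumor cells are seen by T cells.

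Several of the genes are neighbors in the GRCm38 genome. *Cd274* (chromosome 19, 29367455 to 29388095) and *Pdcd1lg2* (chromosome 19, 29410919 to 29471157) lie on the same strand with 22.8 kb between them. *Tnfsf9* (chromosome 17, 57105385 to 57107757) and *Cd70* (chromosome 17, 57145997 to 57149777) lie 38.2 kb apart on opposite strands. *Cd86* (36603869 to 36666081) and *Cd80* (38458933 to 38486933) are both on chromosome 16, on opposite strands, at a distance of 1792852 bases. *Cd40* is on chromosome 2 (165055627 to 165072948) and *Icosl* on chromosome 10 (78069360 to 78079525).

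The 250 bases before the annotated start are shown for 3 genes, from RefSeq on GRCm38.p6, 5′ to 3′ on the strand of the gene: *Cd80* and *Cd274* because their transcripts differed between clones, and *Pdcd1lg2* because it was almost unread beside its abundant neighbor *Cd274*. The windows are chr16:38458683-38458932 for *Cd80*, chr19:29367188-29367437 for *Cd274* and chr19:29410669-29410918 for *Pdcd1lg2*, all on the plus strand. Capitals mark matches on either strand to a loose form of the NF-κB site, which reads GGG, any 5 bases, then CC.
Cd80: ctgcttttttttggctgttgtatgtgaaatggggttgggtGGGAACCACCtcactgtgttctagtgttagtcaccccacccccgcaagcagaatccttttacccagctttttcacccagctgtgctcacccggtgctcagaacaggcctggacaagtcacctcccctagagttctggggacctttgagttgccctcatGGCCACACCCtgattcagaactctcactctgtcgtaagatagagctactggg
Cd274: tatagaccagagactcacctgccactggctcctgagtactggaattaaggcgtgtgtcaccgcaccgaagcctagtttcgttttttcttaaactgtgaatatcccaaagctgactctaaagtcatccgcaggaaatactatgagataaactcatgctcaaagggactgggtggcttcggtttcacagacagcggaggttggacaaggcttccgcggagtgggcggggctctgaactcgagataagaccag
Pdcd1lg2: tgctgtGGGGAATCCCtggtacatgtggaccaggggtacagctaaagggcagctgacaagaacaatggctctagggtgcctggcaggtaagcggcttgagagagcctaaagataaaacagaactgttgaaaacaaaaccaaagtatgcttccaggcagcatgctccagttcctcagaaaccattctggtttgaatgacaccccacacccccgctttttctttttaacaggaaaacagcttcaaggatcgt

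The windows of *Cd80* and *Pdcd1lg2* each held 2 matches to the NF-κB form, which in *Pdcd1lg2* were the same 10 bases read on both strands. The window of *Cd274* held 0. Of 32851 windows of this length in the table, 45.8% held at least 1 such match. A forkhead core, GTAAACA, was searched on both strands and was found in none of these windows, nor in that of *Icosl*, against 3.17% of all windows. The *Cd274* window held 11 CpG sites at 50.4% GC, against 3 at 52.8% for *Cd80* and 3 at 48.4% for *Pdcd1lg2*, with medians of 6 and 52.4% over all windows. A match, or the lack of one, describes letters in this window only. *Cd86*, *Cd40*, *Tnfsf9* and *Cd70* had no entry.

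Total counts ranged from 26328054 to 39181530 per library, so that 3 counts, the limit that a count of 0 allows, corresponded to 0.0751 to 0.118 CPM (normalized counts scaled to a common library size); these limits cover counting error only. *Foxp1* transcript stood at 138 ± 32.7 CPM in the parental line (SD, n = 3, as throughout), 56.8 ± 13.0 in E7.1, 43.0 ± 8.19 in E7.2, 104 ± 4.60 in E6.1 and 106 ± 2.38 in E6.2. By the quasi-likelihood test of edgeR, with p adjusted by the method of Benjamini and Hochberg, which is used throughout, the gene was called lower in clones E7.1 (adjusted p = 0.00688) and E7.2 (0.00116), whereas the exon 6 clones did not pass (E6.1, adjusted p = 0.765; E6.2, 0.417). These values check the transcript and not the protein. All 8 B-cell markers examined were detected, with a summed level of 1370 to 2176 CPM that was lowest in E6.2 (1370 to 1408 CPM). T-cell markers summed to 1.13 to 2.48 CPM, with *Cd3e* and *Cd8b1* at 0 in every library, stromal markers to 0.632 to 1.57 CPM, and myeloid and dendritic markers to 49.9 to 99.5 CPM, most of it *Flt3*. The third replicates of both second clones, E6.2 and E7.2, stood apart from the other libraries of their clones: 23.3% and 15.3% of the tested genes lay more than 2-fold from the mean of replicates 1 and 2 there. The results that change most without both are given beside those values.

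The ligand genes covered a wide range of transcript levels, with *Cd274* far above the others. Compared per kilobase of exon, the parental levels were 32.3 CPM per kb for *Cd274*, 8.95 for *Icosl*, 6.83 for *Cd40*, 2.81 for *Cd86*, 1.55 for *Tnfsf9* and 0.700 for *Cd80*. *Pdcd1lg2* stood at 0.0228 CPM per kb and *Cd70* at 0. *Cd274* had the highest level per kb of the 8 genes in all 15 libraries. The lower places changed between lines: *Cd40* exceeded *Icosl* in all E6.1 libraries and in replicates 1 and 2 of E6.2, while *Icosl* exceeded *Cd40* in all others. *Tnfsf9* passed *Cd86* in every E7.1 library and in replicates 1 and 3 of E7.2, and *Cd80* passed *Tnfsf9* in every E6.1 library and in replicate 2 of E6.2.

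**Figure D1:**
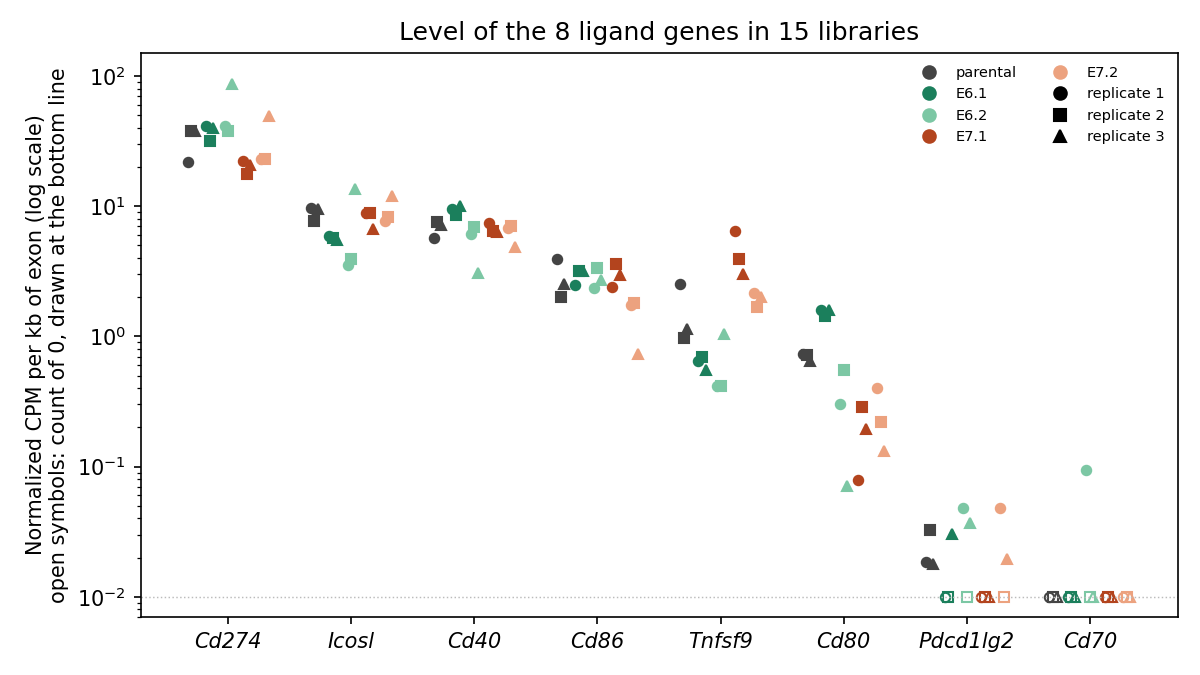
Level of each of the 8 ligand genes, in normalized CPM per kb of exon on a log scale, in each of the 15 libraries, colored by line and with a symbol for the replicate number; open symbols are counts of 0, drawn on the dotted line. *Cd274* is highest in every library, and *Pdcd1lg2* and *Cd70* stay near or at a count of 0.

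*Pdcd1lg2* was read 0 to 3 times per library and *Cd70* 0 to 2 times, so both failed the filter on low counts, and 6 of the 8 genes were tested. *Cd70* had 2 counts in E6.2 replicate 1 and 0 in the other libraries. *Pdcd1lg2* had counts of 0 in all 3 E7.1 libraries and of 1, 2 and 1 in the parental libraries, a difference that is not detectable at this depth. Most genes for the T-cell partners of these molecules were also scarce. *Pdcd1*, which encodes PD-1, had 0 counts in all 15 libraries. *Icos* and *Cd40lg*, the gene of CD40 ligand, had at most 3, *Tnfrsf9* at most 4 and *Ctla4* at most 8. *Cd28* (2 to 87 counts) and *Cd27* (2 to 108 counts) passed the filter and were called in no clone, nor did they reach an unadjusted p under 0.05 in any.

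Against the parental line, none of the ligand genes passed the test in any clone: 0 of 24 tests of 6 genes in 4 clones were called, where 0.752% of all such tests in the genome were. The exon 7 clones had 1.22% (E7.1) and 0.295% (E7.2) of all tested genes called, and the exon 6 clones 0.324% (E6.1) and 1.17% (E6.2). At an unadjusted p under 0.05, 7 of the 24 edgeR tests passed, where 13.3% of all tests did. DESeq2's Wald test and edgeR's likelihood ratio test each called 2 of the 24, *Cd80* and *Tnfsf9*, both in E7.1. In that clone these 2 of 6 genes stood beside 8.71% and 5.38% of all genes called by the 2 tests. The median log2 fold change of the 6 genes was 0.14 in E6.1 and -0.35 in E6.2, beside 0.00 and 0.06 over all tested genes, and it was -0.08 in both exon 7 clones, beside -0.02 in E7.1 and 0.00 in E7.2. In E6.1, *Cd80* and *Cd40* lay above and *Icosl* and *Tnfsf9* below all parental libraries, 2 and 2 of 6 genes where 11.3% and 11.2% of all tested genes did so. The corresponding counts were 1 above and 1 below in E6.2 (6.13% and 8.61% of all genes), 1 and 1 in E7.1 (16.4% and 15.6%) and 0 and 2 in E7.2 (10.8% and 13.3%). All 4 comparisons share the parental libraries. In bulk RNA, fewer cells that express a gene and less RNA per cell cannot be told apart.

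**Figure D2:**
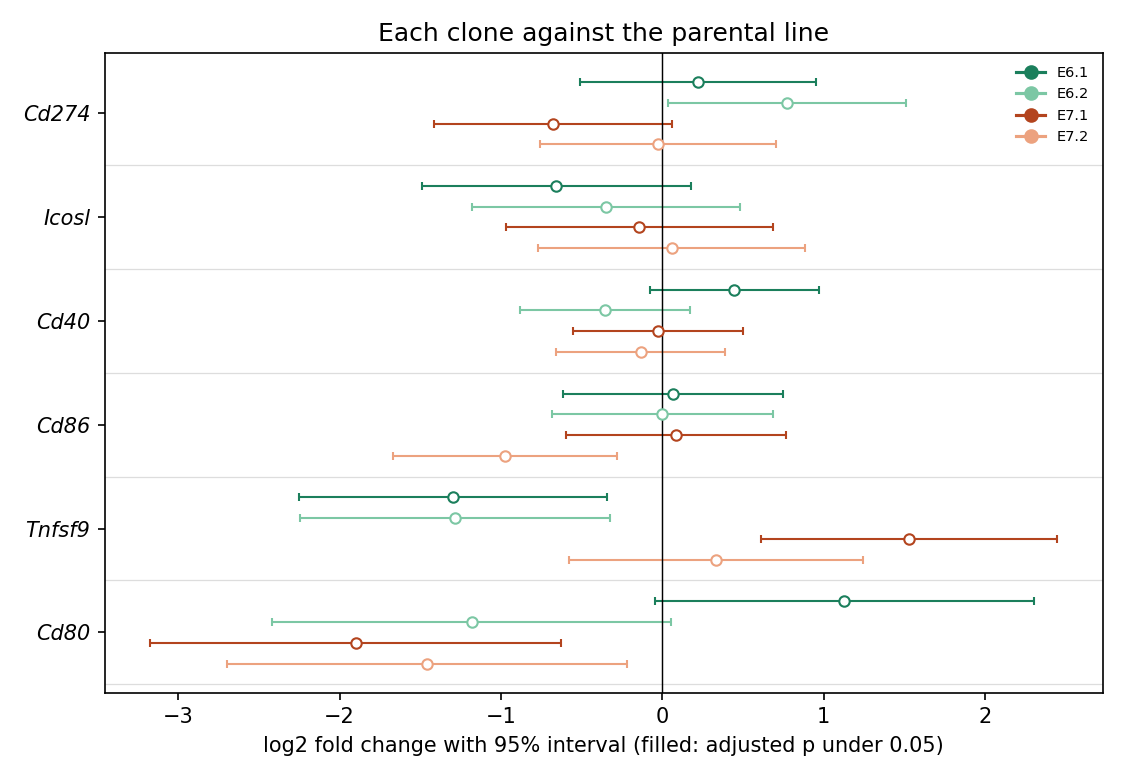
log2 fold change of the 6 tested ligand genes in each clone against the parental line, with 95% intervals from the model; filled points would mark an adjusted p under 0.05. All 24 points are open, and *Tnfsf9* lies on opposite sides of 0 in the E6 clones and in E7.1.

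The lines nevertheless differed in some ligand genes. In a joint test of any difference among the 5 lines, *Tnfsf9* (adjusted p = 0.00441) and *Cd80* (adjusted p = 0.0181) passed, 2 of 6 genes where 6.28% of all tested genes did. *Cd274* (adjusted p = 0.0987), *Cd86* (adjusted p = 0.150), *Cd40* (adjusted p = 0.193) and *Icosl* (adjusted p = 0.544) did not. Between clones, 4 of 36 tests in 6 pairs passed, where 4.09% of all such tests did, and they concerned *Tnfsf9*, *Cd80* and *Cd274*. All 4 involved E7.1, in its pairs with E6.1 and E6.2, where 3.24% and 16.9% of all tested genes were called. In the other pairs of clones 0.352% to 2.24% were. Of the 36 tests, DESeq2's Wald test called 9 and the likelihood ratio test 7, where 8.29% and 6.63% of all tests were called. With no filter on low counts 7 were called, and with edgeR's newer quasi-likelihood method (legacy = FALSE) 6, where 2.55% and 4.46% were. The share of the variance of log2 CPM that lay between lines was 85.2% for *Tnfsf9* and 77.5% for *Cd80*, followed by 60.0% for *Cd86*, 56.6% for *Cd274*, 51.5% for *Cd40* and 33.2% for *Icosl*.

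**Figure D3:**
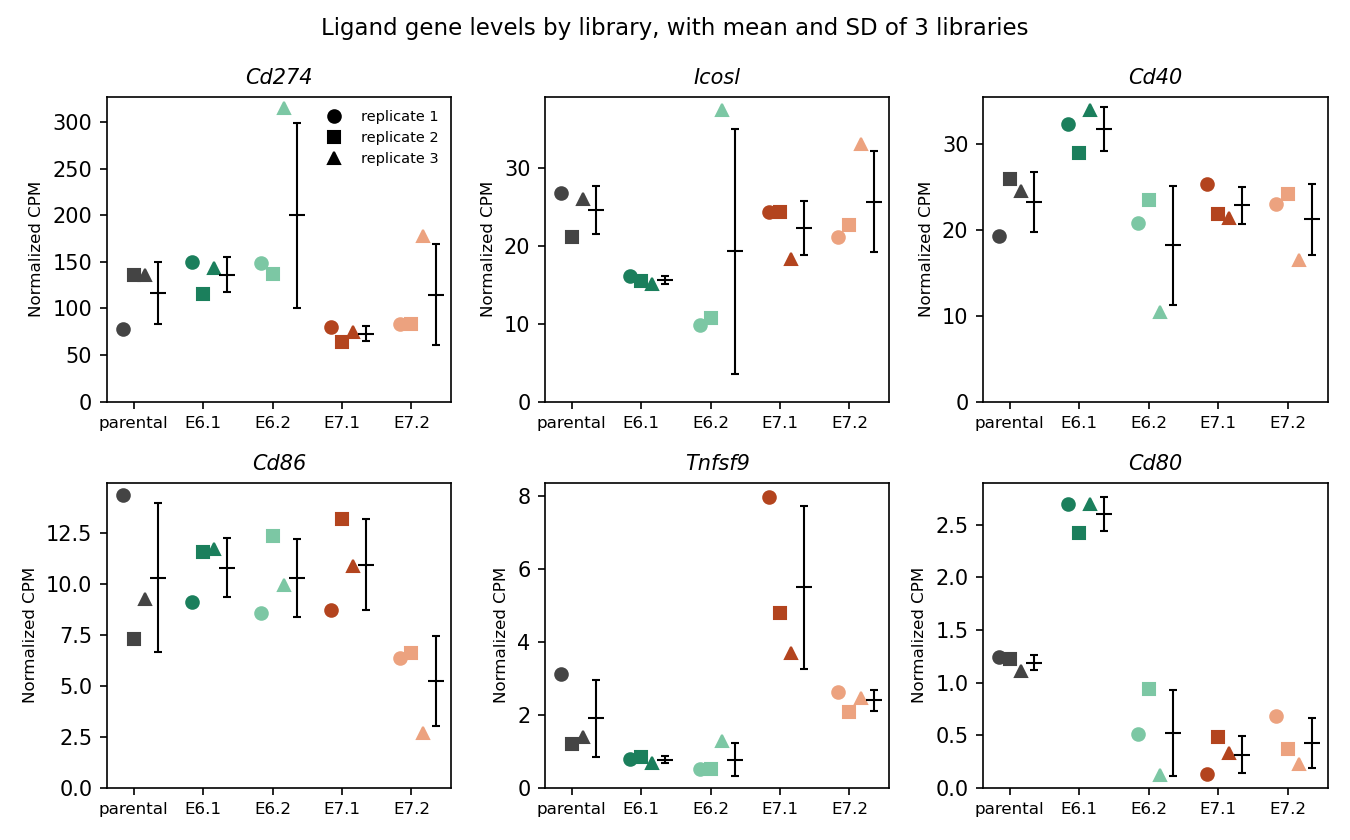
Normalized CPM of the 6 tested ligand genes in each library (symbols give the replicate number), with the mean and SD of the 3 libraries of each line as a bar beside them; every axis starts at 0. *Tnfsf9* is highest in E7.1 and *Cd80* in E6.1, and the third replicate of E6.2 lies far above the others of its clone in *Cd274* and *Icosl*.

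*Tnfsf9*, which encodes the 4-1BB ligand, was highest in E7.1 and lowest in the exon 6 clones. The parental libraries held 3.11, 1.20 and 1.40 CPM in replicates 1, 2 and 3. In E7.1 the values were 7.98, 4.80 and 3.70, and in E7.2 they were 2.64, 2.08 and 2.47. All E7.1 libraries lay above all parental and all E7.2 libraries, while E7.2 overlapped with the parental line. E6.1 held 0.793, 0.851 and 0.676 CPM. E6.2 held 0.512, 0.514 and 1.29, all below both exon 7 clones, with replicate 3 at 2.52 times the mean of the other two. Parental replicate 1 was the highest of its line, and E6.2 replicate 3 fell within the parental range.

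The *Tnfsf9* level in E7.1 was 7.1-fold that in E6.1 (log2 difference 2.83, SE 0.46, adjusted p = 0.00590) and 7.03-fold that in E6.2 (2.81, SE 0.46, adjusted p = 0.00295). In these pairs, 3.24% and 16.9% of all tested genes were called. The first difference missed the threshold when E6.1 replicate 3 was left out (adjusted p = 0.0566), whereas the second passed in all 22 alternatives. The second was smallest without E7.1 replicate 1 (log2 difference 2.45, adjusted p = 0.0160). It was larger without E6.2 replicate 3 (3.41, adjusted p = 0.00139) and without the third replicates of both E6.2 and E7.2 (3.44, adjusted p = 0.000930). E7.2 exceeded E6.1 by a log2 difference of 1.63 (adjusted p = 0.206) and E6.2 by 1.62 (adjusted p = 0.0787), without passing. Without those 2 libraries the second of these was 2.23 and passed (adjusted p = 0.0128), and it passed in 6 of 22 alternatives in all. The difference between the exon 7 clones was -1.20 for E7.2 against E7.1 (adjusted p = 0.271). Against the parental line the log2 fold changes were 1.53 in E7.1 (95% interval 0.61 to 2.45, adjusted p = 0.0774), 0.33 in E7.2 (-0.58 to 1.25), -1.28 in E6.2 (-2.24 to -0.33, adjusted p = 0.244) and -1.30 in E6.1 (-2.25 to -0.34, adjusted p = 0.489). Without both libraries the value in E6.2 was -1.88 (adjusted p = 0.0550). The value in E7.1 passed when parental replicate 1 was left out (2.09, adjusted p = 0.0175, where 6.81% of all genes were called). It also passed without E6.2 replicate 3 (1.55, adjusted p = 0.0296, where 7.05% were). That library is in neither group compared, but without it the filter, normalization, shared spread and adjustment were all computed anew.

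*Cd80* encodes the ligand with the stronger binding to CD28 and CTLA-4, and was highest in E6.1. Parental libraries held 1.24, 1.23 and 1.11 CPM, and E6.1 held 2.70, 2.42 and 2.70. In E6.2 the values were 0.512, 0.937 and 0.120, in E7.1 they were 0.134, 0.485 and 0.328, and in E7.2 they were 0.687, 0.373 and 0.225. All E6.1 libraries thus lay above, and all libraries of the other 3 clones below, all parental libraries, and those 3 clones overlapped with each other. The counts behind these values were few, 4 to 31 per library in E6.2, 5 to 19 in E7.1 and 7 to 26 in E7.2, against 38 to 46 in the parental line and 74 to 108 in E6.1.

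The level of *Cd80* in E7.1 was 8.16-fold below that in E6.1 (log2 difference -3.03, SE 0.60, adjusted p = 0.0201). Without 1 library the call was lost in 4 cases, with an adjusted p of 0.0888 and 0.0907 without E6.1 replicate 1 or 3 and of 0.114 and 0.0815 without E7.1 replicate 1 or 3. E6.2 (-2.31, adjusted p = 0.0781) and E7.2 (-2.58, adjusted p = 0.103) also lay below E6.1 without passing. Both passed without the third replicates of E6.2 and E7.2, at -1.84 (adjusted p = 0.0441) and -2.26 (adjusted p = 0.0461), and each passed in 6 of 22 alternatives, among them DESeq2's Wald test and the likelihood ratio test. Differences among E6.2, E7.1 and E7.2 were -0.72 for E7.1 against E6.2 (95% interval -2.02 to 0.58), -0.28 for E7.2 against E6.2 (-1.55 to 1.00) and 0.44 for E7.2 against E7.1 (-0.86 to 1.74). Against the parental line the log2 fold changes were 1.13 in E6.1 (-0.05 to 2.30, adjusted p = 0.775), -1.18 in E6.2 (-2.42 to 0.06, adjusted p = 0.400), -1.90 in E7.1 (-3.17 to -0.63, adjusted p = 0.101) and -1.46 in E7.2 (-2.70 to -0.22, adjusted p = 0.315). Without both libraries the values were -1.13 in E7.2 (adjusted p = 0.192) and -0.70 in clone E6.2 (adjusted p = 0.379). The value in E7.1 passed without E6.2 replicate 3 (-1.88, adjusted p = 0.0325).

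*Cd86*, the more abundant partner of *Cd80*, was close to the parental level in 3 clones and lowest in E7.2. Its parental libraries spread widely, at 14.4, 7.29 and 9.23 CPM, and the values were 9.10, 11.5 and 11.7 in E6.1, 8.58, 12.3 and 9.95 in E6.2 and 8.73, 13.2 and 10.9 in E7.1. E7.2 held 6.36, 6.61 and 2.69 CPM, all below every library of the other 4 lines. The log2 fold change of E7.2 against the parental line was -0.97 (95% interval -1.67 to -0.28, unadjusted p = 0.00921, adjusted p = 0.255), and it did not pass in any other pair with E7.2 either. Replicate 3 of E7.2 stood at 0.415 times the mean of the other 2 libraries, and without the third replicates of E6.2 and E7.2 the fold change was -0.63 (adjusted p = 0.240). In the other clones the interval reached from -0.61 to 0.75 in E6.1, from -0.68 to 0.68 in E6.2 and from -0.59 to 0.77 in E7.1.

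Both B7 transcripts were set against each other per kb where each had more than 10 counts. *Cd86* exceeded *Cd80* 2.76- to 5.38-fold in the parental libraries and 1.57- to 2.22-fold in E6.1. The ratio was 7.79 and 6.12 in replicates 1 and 2 of E6.2, 12.6 and 15.4 in replicates 2 and 3 of E7.1, and 4.31 and 8.23 in replicates 1 and 2 of E7.2. The E6.1 libraries were below, and the E6.2 and E7.1 libraries above, all parental libraries, while E7.2 overlapped with the parental line. The other 3 libraries had too few *Cd80* counts.

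*Cd274*, which encodes PD-L1, was the most abundant of the ligand genes and lay lowest in E7.1. Parental libraries held 78.4, 136 and 136 CPM, and E6.1 held 150, 115 and 143. In E6.2 the values were 148, 137 and 315, in E7.1 they were 80.6, 63.9 and 74.7, and in E7.2 they were 83.0, 83.5 and 178. The third replicates of E6.2 and E7.2 thus lay at 2.21 and 2.13 times the mean of the other libraries of their clones. All E7.1 libraries lay below every library of the other 3 clones, and overlapped with the parental line only through its replicate 1.

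*Cd274* in E7.1 was 2.74-fold below that in E6.2 (log2 difference -1.45, SE 0.35, adjusted p = 0.0164). The call was lost when any 1 of the E7.1 libraries was left out, with an adjusted p of up to 0.0618. The size rested on E6.2 replicate 3: without it the log2 difference was -0.97 (adjusted p = 0.0334), and without the third replicates of both E6.2 and E7.2 it was -0.94 (adjusted p = 0.00504). Against E6.1 the difference was -0.90 (adjusted p = 0.144). Relative to the parental line the log2 fold changes were 0.22 in E6.1 (95% interval -0.51 to 0.96), 0.77 in E6.2 (0.04 to 1.51, adjusted p = 0.360), -0.68 in E7.1 (-1.41 to 0.06, adjusted p = 0.288) and -0.03 in E7.2 (-0.76 to 0.71). Without both libraries the value was -0.45 in E7.2 (adjusted p = 0.244) and 0.28 in clone E6.2 (adjusted p = 0.442). Values within lines scattered more than is usual for a gene of this level, with a biological coefficient of variation of 0.296 where the trend over genes was 0.195.

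**Figure D4:**
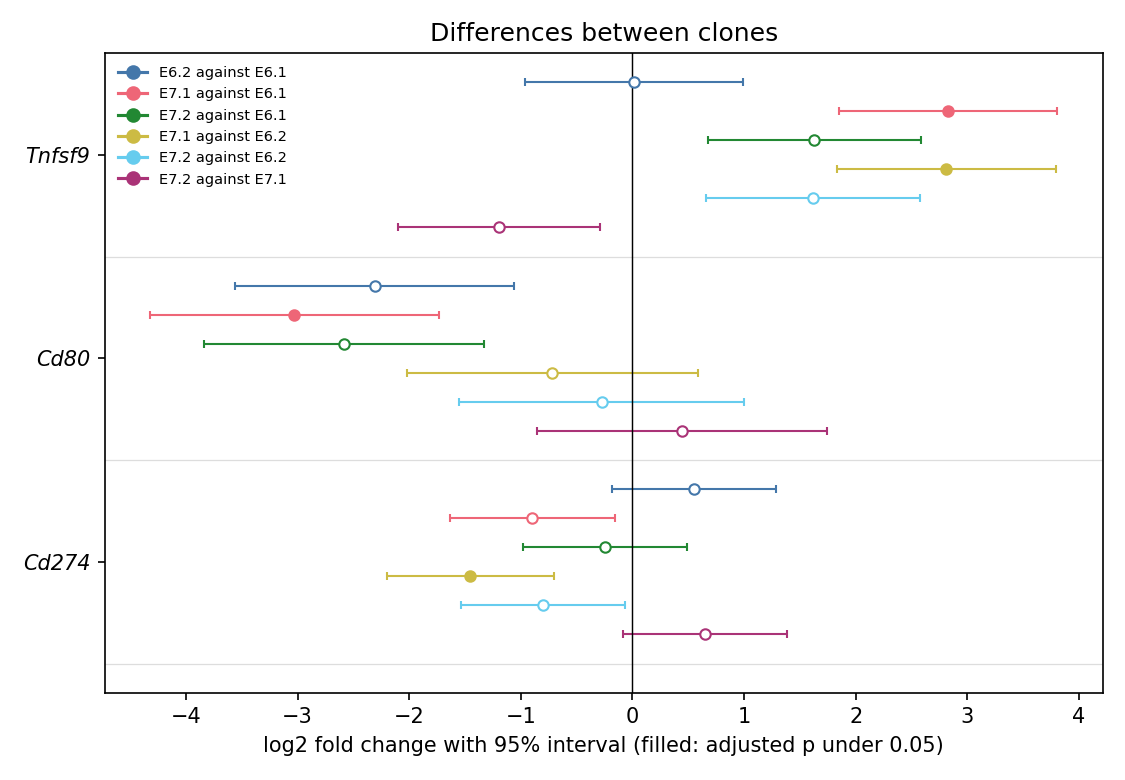
log2 differences between clones of *Tnfsf9*, *Cd80* and *Cd274* in the 6 pairs of clones, with 95% intervals from the model; filled points mark an adjusted p under 0.05. The 4 filled points are E7.1 against E6.1 and E6.2 for *Tnfsf9*, against E6.1 for *Cd80* and against E6.2 for *Cd274*.

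*Cd40*, the receptor for helper T-cell signals, ranged from 10.4 to 34.0 CPM over all libraries. Parental libraries held 19.3, 25.9 and 24.5 CPM, E6.1 held 32.3, 28.9 and 34.0, E7.1 held 25.3, 21.8 and 21.4, E6.2 held 20.8, 23.5 and 10.4, and E7.2 held 23.0, 24.1 and 16.5. E6.1 was above every library of the other 4 lines, at a log2 fold change of 0.45 against the parental line (95% interval -0.08 to 0.97, adjusted p = 0.839). Its lowest values were those of the third replicates of E6.2 and E7.2. The other clones differed from the parental line by -0.35 (-0.88 to 0.17) in E6.2, -0.03 (-0.55 to 0.50) in E7.1 and -0.13 (-0.66 to 0.39) in E7.2. Without both libraries, E6.2 differed by -0.08 and E7.2 by 0.05.

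*Icosl*, the gene of the ICOS ligand, was low in E6.1 and in 2 of the 3 E6.2 libraries. Parental libraries held 26.8, 21.1 and 26.1 CPM and E6.1 held 16.2, 15.6 and 15.2, with no overlap. E6.2 held 9.80, 10.7 and 37.5 CPM, so that the clone had both the lowest and the highest library of all 15. E7.1 held 24.3, 24.4 and 18.3, and E7.2 held 21.2, 22.8 and 33.2. The log2 fold changes against the parental line were -0.66 in E6.1 (95% interval -1.49 to 0.18, adjusted p = 0.852), -0.35 in E6.2 (-1.18 to 0.48, adjusted p = 0.716), -0.14 in E7.1 (-0.97 to 0.69) and 0.06 in E7.2 (-0.77 to 0.89). Without E6.2 replicate 3 the fold change in E6.2 was -1.24 and passed (adjusted p = 0.00819), where 1.16% of all genes were called. As in *Cd274*, the scatter within lines was above the trend, with a biological coefficient of variation of 0.335 against 0.232.

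The third replicates of E6.2 and E7.2 deviated in the same direction in several ligand genes, and further tests passed without them. Relative to the mean of replicates 1 and 2, E6.2 replicate 3 stood at 3.65 times in *Icosl*, 2.52 in *Tnfsf9*, 2.21 in *Cd274*, 0.952 in *Cd86*, 0.468 in *Cd40* and 0.166 in *Cd80*. The same ratios for E7.2 replicate 3 were 1.51, 1.05, 2.13, 0.415, 0.702 and 0.424. In both libraries *Cd274* and *Icosl* were high and *Cd40* and *Cd80* low. Their TMM normalization factors, 0.906 and 0.826, were the lowest of the 15, the others lying between 0.966 and 1.05.

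**Figure D5:**
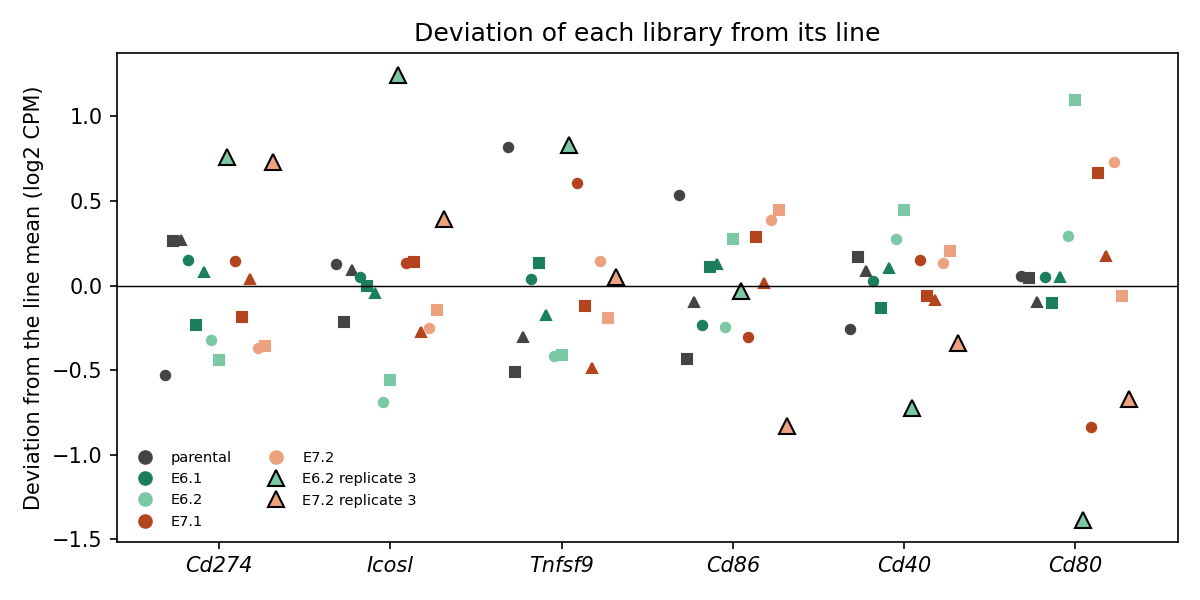
Deviation of each library from the mean of its line, in log2 CPM, for the 6 tested ligand genes; the third replicates of E6.2 and E7.2 are drawn larger with a black edge. Both lie above 0 in *Cd274* and *Icosl* and below 0 in *Cd40* and *Cd80*.

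Without both libraries, 5 of the 24 tests against the parental line passed. *Icosl* was then called lower in both exon 6 clones, with log2 fold changes of -0.65 for E6.1 (adjusted p = 0.0473) and -1.27 for E6.2 (adjusted p = 0.000936), where 0.924% and 2.26% of all tested genes were called. E7.1 had 3 called genes, *Cd80* (-1.87, adjusted p = 0.0146), *Cd274* (-0.65, adjusted p = 0.0321) and *Tnfsf9* (1.55, adjusted p = 0.0165), where 15.2% of all tested genes were called. E7.2 had 0, where 1.53% were. Between clones 13 of 36 tests passed, where 12.4% of all such tests did. These included all 4 calls made with all libraries, among them *Cd80* (adjusted p = 0.00155) and *Tnfsf9* (adjusted p = 0.00135) in E7.1 against E6.1. *Icosl* then also exceeded E6.2 in E7.2 (log2 difference 1.14, adjusted p = 0.00220) and in clone E7.1 (1.15, adjusted p = 0.000928). Among the 5 lines, 5 of 6 genes differed, where 28.6% of all genes did.

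Each ligand gene had other genes with a similar profile over the 15 libraries, which share their 5 lines, and the likeness is given as a description. Highest in Pearson's r of log2 CPM were *Peli1* (r = 0.942) and *Adpgk* (0.927) for *Cd80*, *Cers2* (0.971) and *Arih2* (0.966) for *Cd274*, and *Tubb6* (0.948) and *Emp3* (0.947) for *Tnfsf9*. *Cd40* was most like *Pggt1b* (0.960) and *Plxnc1* (0.950), *Icosl* most like *Creg1* (0.926) and *Itpkb* (0.905), and *Cd86* most like *Hyls1* (0.855) and *Gng3* (0.850). In the 13 libraries without the third replicates of E6.2 and E7.2, the first of each pair had r = 0.920, 0.940, 0.954, 0.870, 0.891 and 0.583 in the same order. The likeness of *Cd86* and *Hyls1* thus lost most without them.

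Other genes of the pathway were examined as 3 lists. With all libraries, the quasi-likelihood test called none of them higher in any clone. Such calls were rare among all tested genes, at 0.396% for E7.1, 0.165% for E6.2, 0.0863% for E7.2 and 0.0575% for E6.1. Their absence therefore does not set these lists apart from other genes. Of 22 further ligands and surface regulators of T cells, 14 were tested and 1 was called in 1 clone, *Cd200*, which encodes an inhibitory ligand of the CD200 receptor on myeloid cells and T cells. *Cd200* fell in E6.2, from 206, 163 and 171 CPM in the parental libraries to 59.8, 80.1 and 79.3 (log2 fold change -1.30, SE 0.14, adjusted p = 0.000119), with no overlap, in a clone where 1.17% of all tested genes were called. The other clones held 171 to 188 CPM in E6.1, 154 to 165 in E7.1 and 246 to 262 in E7.2. E6.2 differed from each of the other 3 clones, with adjusted p of 6.70e-05, 0.000298 and 4.39e-06 against E6.1, E7.1 and E7.2. The call in E6.2 against the parental line was kept in all 14 alternatives. The summed B-cell markers were lowest in the same clone, and their part in this difference was not tested.

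Of 16 genes that control the ligands, 15 were tested and 2 were called, each in 1 clone, where 0.752% of all gene and clone tests were called. *Cmtm6*, whose product keeps PD-L1 protein at the cell surface, fell in E6.1 from 65.6, 83.1 and 81.2 CPM to 35.7, 36.2 and 39.4 (log2 fold change -1.05, SE 0.14, adjusted p = 0.00184). The E6.1 libraries lay below those of every other line, and E6.1 differed from each other clone (adjusted p of 0.00112, 0.00381 and 0.00786 for E6.2, E7.1 and E7.2). That call was kept in all 14 alternatives. *Cd274* transcript in E6.1 itself was at 136 ± 18.5 CPM, beside 117 ± 33.3 in the parental line, and protein was not measured in these libraries. *Adam10*, which encodes a protease that sheds ICOS ligand, fell in E6.2 from 364, 335 and 322 CPM to 177, 223 and 247 (-0.66, SE 0.14, adjusted p = 0.0293), but this call was kept in only 6 of 14 alternatives and was lost without any 1 of the parental libraries or without E6.2 replicate 1 or 2.

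All 18 genes of CD40 signaling, from the TRAF adaptors to the NF-κB subunits, were tested and 0 were called in any clone. Of all gene and clone tests, 0.752% were called. At an unadjusted p under 0.05, the exon 7 clones had 7 (E7.1) and 2 (E7.2), where 20% and 13.3% of all genes passed, and the exon 6 clones 3 (E6.1) and 5 (E6.2), where 6.71% and 13.1% did. Their median log2 fold change was -0.20 in E7.1, where the median of all tested genes was -0.02, and lay between -0.02 and 0.05 in the other clones. DESeq2's Wald test called 3 genes of the lists in E7.1 (*Traf5*, *Nfkbia* and *Birc3*, all lower), where 8.71% of all genes were called, and 2 for E7.2, where 1.83% were: *Btla*, which was lower, and *Cd200*, which was higher (adjusted p = 0.00899). Without the third replicates of E6.2 and E7.2, edgeR called *Birc3*, *Chuk*, *Nfkbia*, *Relb* and *Traf5* lower in E7.1 and *Traf3* higher (adjusted p = 0.0427). In that fit 15.2% of all tested genes were called in E7.1. These genes are named here after their values were seen. The medians of the further ligands were 0.14 in E7.1, 0.15 in E7.2, 0.03 in E6.1 and -0.27 in E6.2, and those of the genes that control the ligands lay between -0.13 and -0.01 in all clones.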

How the data were processed

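RNA was sequenced from 5 A20 lines with 3 libraries each. The authors deposited raw counts of read pairs per gene. According to the file headers and the submitters' processing notes they aligned with HISAT and counted with featureCounts 1.5.0 on GRCm38, ignoring strand and leaving out pairs with several alignments or several overlapping genes. Overlapping or antisense transcripts can therefore not be told apart. Symbols came from GENCODE by identifier for 40254 of 41388 genes. In R 4.3.3, edgeR 4.0.16 was run with filterByExpr (13904 genes kept), TMM and the quasi-likelihood F-test, with all 15 libraries in 1 fit and the line as the only factor. Tests compared each clone with the parental line, the 6 pairs of clones, and all lines jointly. Benjamini-Hochberg adjustment ran over all tested genes within each comparison, and genes were called at an adjusted p under 0.05. Levels are TMM-normalized CPM. The fit was tested on simulated data with the same spread for all genes and no libraries that stood apart. Those settings differ from these data, so that test does not measure how the fit performs here. Alternatives were DESeq2 1.42.0's size factors and Wald test, no filter, edgeR's likelihood ratio test and newer quasi-likelihood method (legacy = FALSE), only the 6 libraries compared, a replicate block, and fits without single libraries or without the third replicates of both E6.2 and E7.2.

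The ligand genes were listed by name and the other lists by role, but all were chosen with earlier results of these data known. Named are the 8 ligand genes, the listed pathway genes called in a clone against the parental line, the 2 genes most like each ligand gene with a mean of at least 1 CPM, and *Foxp1*. Replicate libraries came from separate passages, so p values measure the spread between passages of 1 line, not between independent clones. No 2 libraries were copies of each other.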

Additional observations from a re-analysis of the deposited data

Results flagged for a closer look

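The response of 3 ligand genes differed between clones by a test of the difference itself. For *Tnfsf9*, E7.1 exceeded E6.1 by a log2 difference of 2.83 and E6.2 by 2.81. For *Cd80*, E7.1 lay below E6.1 by a log2 difference of -3.03. For *Cd274*, E7.1 lay below E6.2 by -1.45. In each case all 3 libraries of 1 clone lay on one side of all 3 of the other. These differences were picked because they passed, so the lack of overlap adds no separate support. In E7.1 against E6.1, 20.9% of all tested genes lay wholly above and 22.3% wholly below. In E7.1 against E6.2, 16.5% and 15.2% did. Each clone is a single line, so differences between clones made with different guides and between any 2 clones cannot be told apart.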

How the results depend on the processing

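The number of ligand gene tests called between clones (4 of 36) was 7 with no filter on low counts and 9 with DESeq2's Wald test. It was 7 with edgeR's likelihood ratio test and 13 without the third replicates of both E6.2 and E7.2. Leaving out 1 library at a time gave 2 to 8. The lowest came without E6.1 replicate 3, E7.1 replicate 1 or E7.1 replicate 3, where 2.43%, 1.42% and 1.79% of all tests were called. The highest came without E6.2 replicate 3, where 8.93% were. The number that differed among the lines (2) was 5 without both libraries and 1 to 3 without 1 library. It was 1 without E6.1 replicate 1, E6.1 replicate 3 or E7.1 replicate 3, where 2.74%, 2.49% and 2.45% of all genes differed. It was 3 without E6.2 replicate 3 or E7.2 replicate 3, where 20.2% and 11.7% did. Against the parental line (0 in each clone), E7.1 had 2 with DESeq2's Wald test, 2 with the likelihood ratio test, 3 without both libraries and 0 to 1 without 1 library (1 without parental replicate 1), and 2 without E6.2 replicate 3, which is in neither of the groups compared. E6.1 had 1 without both libraries, and E6.2 had 1 without both and 0 to 1 without 1 library (1 without E6.2 replicate 3). The fits with DESeq2's size factors and of only the 6 libraries compared called 0 ligand genes against the parental line, and the size factors left the counts between clones at 4 and among lines at 2. edgeR's newer quasi-likelihood method gave 0, 6 and 2. The listed pathway genes called in E7.1 (0) were 3 with DESeq2 and 6 without both libraries, and those in E7.2 (0) were 2 with DESeq2. Without parental replicate 1, *Chuk*, *Nfkbia* and *Traf5* were called lower in E7.1, where 6.81% of all genes were called. The likelihood ratio test called *Traf5* lower in that clone, where 5.38% were. Same-numbered libraries of different lines had a mean correlation of deviations of 0.0531, against -0.0249 for others. Of 15 libraries, 7 correlated best with their own number. The highest correlation of all 90 pairs was 0.426, between the third replicates of E6.2 and E7.2. Whether the replicate numbers mark a pairing was not tested. With the replicate block, 1 pathway gene instead of 2 was called in E6.2, where *Adam10* was lost, and no call of a ligand gene changed. The cause of these changes was not tested.

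Of 336 alternative fits of a ligand gene against the parental line, 302 kept direction and side of the threshold, 11 passed where the reported test had not, and 23 changed sign, all uncalled. The log2 fold changes that changed sign were -0.018 (no filter) and -0.0091 (replicate block) for *Cd86* in E6.2, and without both libraries 0.052 for *Cd40* and -0.13 for *Icosl* in E7.2. Without 1 library, the fold changes of genes with a change of sign ranged from -0.13 to 0.38 for *Cd86* in E6.1, -0.20 to 0.32 in E6.2 and -0.11 to 0.42 in E7.1, from -0.13 to 0.061 for *Cd40* in E7.1 and -0.24 to 0.052 in E7.2, from -0.13 to 0.19 for *Icosl* in E7.2, and from -0.0019 to 0.35 for *Cd274* in E6.1 and -0.45 to 0.16 in E7.2. Depth limits *Cd80*, *Tnfsf9* and above all *Pdcd1lg2* and *Cd70*, for which no difference was detectable.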
